A study of Mus musculus with 7 samples.

Results

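The genes described are 4 JAK kinases, *Jak1*, *Jak2*, *Jak3* and *Tyk2*, and 5 STAT factors, *Stat2*, *Stat3*, *Stat5a*, *Stat5b* and *Stat6*. They were taken by symbol from the deposited expression table, in which they are 9 of 12239 genes. The set was chosen because *Jak3* was low in the knockout libraries, so its values are given below as a description without a p-value. The other two STAT genes were not used here. The question put to the data was whether the low level of *Jak3* was shared by its paralogs and by the receptors, inhibitors and targets of the same pathway.

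RNA was measured by sequencing in tibialis anterior (TA), a leg muscle made mostly of fast-twitch fibres, from male FVBN mice of 5 to 6 months. This age is that of the sample titles, and other passages of the study give a lower starting age for its young TA mice. The 4 wild-type (WT) libraries were compared with 3 libraries of mice lacking *Mybpc2* (C2-/-), the gene of fast skeletal myosin-binding protein C. In the C2-/- allele a Neo cassette flanked by LoxP sites stands in place of exons 2 to 22. Each library has its own identifier in the table, and the study describes its mice as 3 C2-/- and 4 WT, whereas the series' design text gives 4 per genotype. The errors below are read as the spread between the 7 libraries at hand. The labels themselves give only a replicate number.

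JAK kinases are tyrosine kinases bound to the inner part of cytokine receptors. When a cytokine brings receptor chains together, the JAKs phosphorylate each other on a pair of neighbouring tyrosines in the activation loop, then the receptor and the STAT proteins docked on it. Phosphorylated STATs form dimers, enter the nucleus and bind DNA. JAK1, JAK2 and TYK2 are made in most cell types and serve many receptors, whereas JAK3 is best known from blood cells, where it binds the common gamma chain of the interleukin-2 receptor family. In muscle, growth hormone signals through JAK2 and STAT5B, and interleukin-6 type cytokines signal through JAK1 and STAT3.

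The pair of loop tyrosines is shared by all 4 kinases, and the sequences below show both what the paralogs have in common and how far their base composition differs. Each line is the coding sequence of 19 codons around it, 5′ to 3′, from the GENCODE transcripts on GRCm38, with the 2 tyrosine codons in capitals.
Jak1: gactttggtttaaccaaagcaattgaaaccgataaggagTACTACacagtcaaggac
Jak2: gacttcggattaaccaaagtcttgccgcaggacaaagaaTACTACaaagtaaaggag
Jak3: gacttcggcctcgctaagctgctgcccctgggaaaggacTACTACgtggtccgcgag
Tyk2: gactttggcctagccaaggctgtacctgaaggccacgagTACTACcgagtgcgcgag
The tyrosine codons are codons 1033 and 1034 in *Jak1*, 1007 and 1008 in *Jak2*, 976 and 977 in *Jak3* and 1074 and 1075 in *Tyk2*. Of the 57 bases, 23 are G or C in *Jak1* and 24 in *Jak2*, against 36 in *Jak3* and 34 in *Tyk2*. The same division held over the whole coding sequence, where G and C made up 48.0% in *Jak1*, 43.1% in *Jak2*, 61.1% in *Jak3* and 58.4% in *Tyk2*. At the third base of the codons the share reached 73.7% in *Jak3* and was 45.6% in *Jak2*.

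The libraries were unequal. The WT libraries held 4683853 to 15464499 reads in the table and the C2-/- libraries 2613277 to 4917936. WT replicate 4, the shallowest WT library, stood apart from the other WT libraries, with Pearson's r across genes of 0.917 to 0.930 against 0.984 to 0.988 among the rest. Among the C2-/- libraries r was 0.872 to 0.918. Values are log2 CPM (reads of the gene per 1000000 reads, after TMM scaling, with 0.5 reads added), and a change is the C2-/- mean less the WT mean, ± the standard error (SE) from limma fitted over all genes. *Mybpc2* stood at 12.41 to 12.85 in WT and at -0.47 to 1.67 in C2-/-, as the labels say. A gene was past the threshold at an adjusted p under 0.05 with a fold change above 1.5 either way. This held for 45.2% of all genes, 20.2% higher and 25.0% lower in C2-/-. Those higher were 44.7% of the genes past it, and this share was 54.0% with each library centred on its median and 59.6% after a correction for GC content. The median change over all genes was -0.14 and became 0.02 with median centring.

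*Jak3* fell furthest of the 9 genes, to between 0 and 3 reads per C2-/- library. Its log2 level was 3.16, 3.02, 3.50 and 2.15 in WT replicates 1 to 4 and 0.27, -2.42 and -3.27 in C2-/- replicates 1 to 3. In reads, these were 137, 121, 173 and 19 against 3, 0 and 0. All C2-/- libraries lay below all WT libraries, and WT replicate 4 was the lowest of its group. The change was -4.77 ± 0.83 (SE, 4 WT and 3 C2-/- libraries). Scaled for depth, the WT libraries together held 31.2 times as many *Jak3* reads as the C2-/- libraries (450 against 3 reads, 95% exact interval 10.6 to 152, for counting error only). Against WT replicate 4 alone the ratio was 15.0 (19 against 3 reads, 4.42 to 79.1). At the CPM of WT replicate 4 and the depth of the C2-/- libraries, the expected reads would be 12.6, 11.5 and 20.9, and the part of depth in the difference was not tested. In whole tissue, fewer cells that make a transcript and less of it per cell cannot be told apart.

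The *Jak3* gene lies at chr8:71676296-71690575 on the plus strand (GRCm38). Its last 404 exon bases, 10.1% of the transcript used here, are also exon of *Insl3* on the same strand, a gene not analysed here. Reads from that stretch cannot be assigned to one of them.

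*Tyk2*, the partner of the type I interferon and interleukin-12 receptors, was the other JAK with lower values. It stood at 3.91, 3.73, 3.81 and 3.37 in WT and at 2.22, 2.44 and -0.47 in C2-/-, again with no overlap. The change was -2.31 ± 0.64. C2-/- replicate 3, with 3 reads, was far below the other two, which held 13 and 14 reads. Without it the change was -1.38.

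*Jak1*, which serves the gp130, gamma chain and interferon receptors, was the most abundant JAK and hardly differed. It stood at 7.51, 7.73, 7.36 and 8.002 in WT and at 7.25, 7.74 and 7.57 in C2-/-, with a change of -0.13 ± 0.19. Its sign turned with median centring, to 0.030. *Jak2*, the kinase of the growth hormone, leptin and beta common receptors, stood at 5.92, 6.03, 5.73 and 7.12 in WT and at 6.49, 6.39 and 7.25 in C2-/-. The groups overlapped only because of WT replicate 4, which lay among the C2-/- libraries. The change was 0.51 ± 0.34 with that library, 0.82 without it and -0.41 against it alone.

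**Figure D1:**
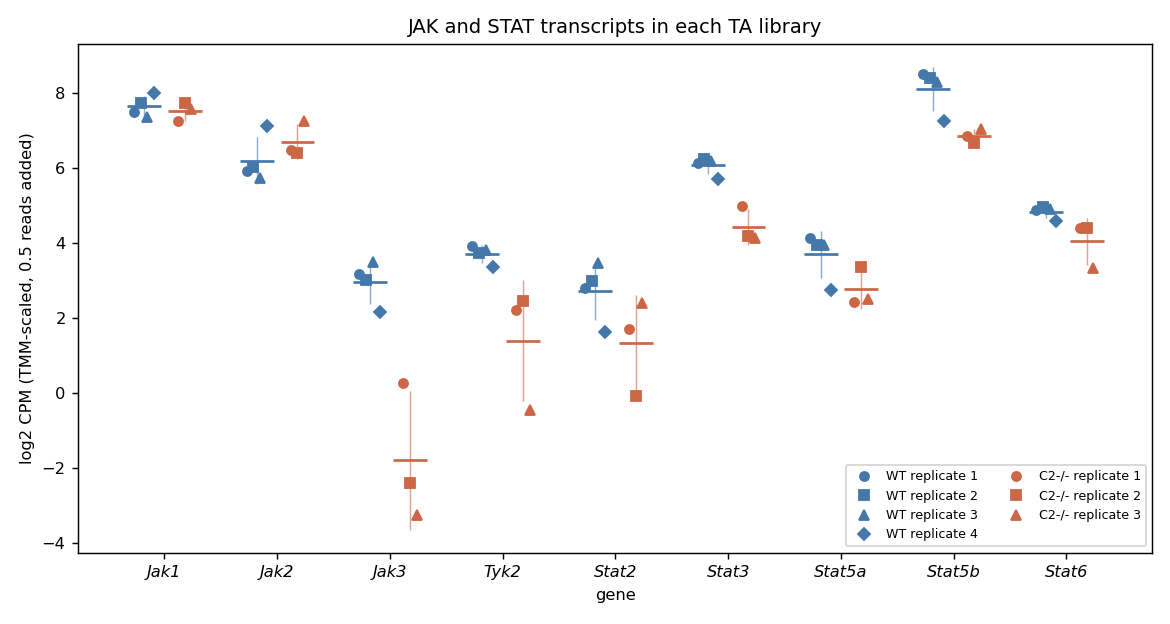
Log2 CPM (y axis, TMM-scaled, 0.5 reads added) of the 9 genes (x axis) in each TA library, WT in blue and C2-/- in orange, with the group mean as a horizontal bar and ±1 SD as a vertical line. The C2-/- libraries lie below all WT libraries for Jak3, Tyk2, Stat3, Stat5b and Stat6, and WT replicate 4 is the lowest WT library in 7 of the 9 genes.

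The same reads can be given as shares of the JAK reads, which describes them in another form and is no further support. *Jak3* took 3.34%, 2.70%, 4.65% and 1.05% of the reads of the 4 JAK genes in WT replicates 1 to 4. In C2-/- replicate 1 its share was 0.417% (95% exact interval 0.0860 to 1.21%), and the other two held 0 of 809 and 0 of 1655 JAK reads. A count of 0 allows shares of up to 0.371% and 0.181% there, taken as 3 reads of the total, and the exact intervals end at 0.455% and 0.223%. The interval of C2-/- replicate 1 reached into that of WT replicate 4 (0.636 to 1.64%), and the others did not. *Tyk2* took 4.42 to 5.77% of the JAK reads in the 3 deep WT libraries and 2.50% in WT replicate 4. Its shares in C2-/- were 1.81%, 1.73% and 0.181%. *Jak1* and *Jak2* together supplied the rest in every library. The summed level of the JAK genes did not separate the genotypes, at 242 to 410 CPM in WT and 248 to 343 CPM in C2-/-.

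**Figure D2:**
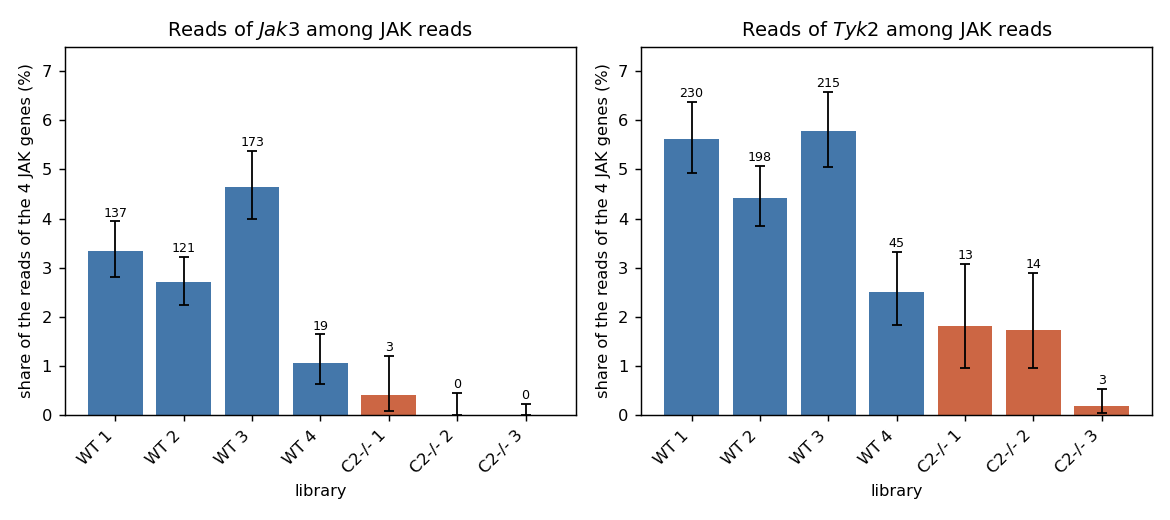
Share (%) of the reads of the 4 JAK genes that belong to Jak3 (left) and Tyk2 (right) in each library, with 95% exact binomial intervals for counting error and the number of reads above each bar. Jak3 holds 19 to 173 reads per WT library but 0 to 3 per C2-/- library.

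Among the STATs, *Stat3*, the factor of interleukin-6 type cytokines, separated the groups most clearly. It stood at 6.14, 6.25, 6.19 and 5.72 in WT and at 4.99, 4.18 and 4.15 in C2-/-. The lowest WT library was still above the highest C2-/- library. The change was -1.63 ± 0.25, and -1.28 against WT replicate 4 alone. Because the reads behind it were many, 231 to 1137 in WT and 48 to 92 in C2-/-, this value rests less on single reads than that of *Jak3*.

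*Stat5b*, the main factor of growth hormone in muscle and liver, stood at 8.51, 8.40, 8.32 and 7.26 in WT and at 6.86, 6.68 and 7.04 in C2-/-. All C2-/- libraries were below all WT libraries, but WT replicate 4 lay nearer to them than to its own group. The change was -1.26 ± 0.28 over all libraries, -1.55 without that library and -0.40 against it alone. Its close paralog *Stat5a*, named for prolactin signalling in the mammary gland, stood at 4.13, 3.96, 3.94 and 2.75 in WT and at 2.41, 3.36 and 2.51 in C2-/-. Here WT replicate 4 fell inside the C2-/- range. The change was -0.93 ± 0.42, and 0.016 against WT replicate 4 alone. Of the 50-base stretches of the *Stat5a* transcript 15.8% also occur in *Stat5b*, and 11.8% the other way round, so part of the reads of the pair is uncertain.

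*Stat6*, the factor of interleukin-4 and interleukin-13, stood at 4.89, 4.96, 4.91 and 4.59 in WT and at 4.40, 4.40 and 3.33 in C2-/-. The groups did not overlap, though the gap was small, and the change was -0.79 ± 0.30. *Stat2*, which works with IRF9 in the type I interferon response, stood at 2.81, 2.997, 3.46 and 1.62 in WT and at 1.71, -0.10 and 2.40 in C2-/-. These ranges overlapped, again through WT replicate 4, and the change was -1.38 ± 0.66. It was -0.67 without C2-/- replicate 2 and -0.28 against WT replicate 4 alone. The lowest C2-/- value rested on 2 reads.

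The STAT reads summed to 448 to 488 CPM in the 3 deep WT libraries, to 239 CPM in WT replicate 4 and to 152 to 177 CPM in C2-/-, so that all C2-/- libraries were below all WT libraries. *Stat5b* supplied most of these reads in every library, between 64.0 and 77.4%.

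The threshold was passed by 4 of the 9 genes (*Jak3*, *Tyk2*, *Stat3* and *Stat5b*), all lower in C2-/-, beside 45.2% of all genes past it and 25.0% past it and lower. The C2-/- libraries lay wholly below the WT libraries for those 4 and *Stat6*, 5 of 9 in all, beside 26.7% of all genes (49.3% without overlap in either direction). As the set was chosen from this contrast, nothing is read from these counts. The median change was -1.22 over the JAKs and -1.26 over the STATs, against -0.14 over all genes. After GC correction these medians were -0.65, -0.62 and 0.019. With WT replicate 4 left out, 8 of 9 passed, all but *Jak1*, and of these *Jak2* alone was higher, beside 50.1% of all genes past the threshold in the same fit, 26.6% lower. Leaving out C2-/- replicate 1 or 2 gave 5 and 6 of 9, beside 44.7% and 42.7% of all genes, and leaving out any other library gave 4, beside 33.5 to 42.2%. In WT replicate 4, 3 of the 9 genes lay within the C2-/- range.

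The changes ran broadly with base composition. The transcripts of *Jak2* (44.3% GC) and *Jak1* (47.6%) had the least G and C and changed by 0.51 and -0.13. *Tyk2* (57.0%) and *Jak3* (61.1%) had the most and were the lowest. Spearman's rho between change and GC content was -0.70 over the 9 genes and -0.68 over 12174 genes with a transcript, where all points share the same 7 libraries. Split by GC content into 10 equal classes, genes in the class of *Jak3* had a median change of -1.73 and 64.7% of them were past the threshold and lower, while genes in the class of *Jak2* had a median change of 0.78. *Jak3* lay furthest below the median of its class. *Tyk2* (-2.31 against -1.28), *Stat2* (-1.38 against -0.35), *Stat3* (-1.63 against -0.70) and *Stat5b* (-1.26 against -0.70) were also below theirs. So, by less, were *Jak1* (-0.13 against 0.25), *Jak2* (0.51 against 0.78) and *Stat6* (-0.79 against -0.70). *Stat5a*, at -0.93, was close to the -1.01 of its class.

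With each library corrected for GC content, *Jak3* changed by -2.98 and *Stat3* by -1.03, and both stayed past the threshold, as 8.33% of all genes were in that direction and 12.3% in the other. *Tyk2* changed by -0.99, *Stat5b* by -0.62, *Stat2* by -0.89 and *Jak1* by -0.32, none past it. *Stat5a* (0.22), *Stat6* (0.011) and *Jak2* (-0.10) changed sign. What part GC content has in the differences between the genotypes was not tested.

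**Figure D3:**
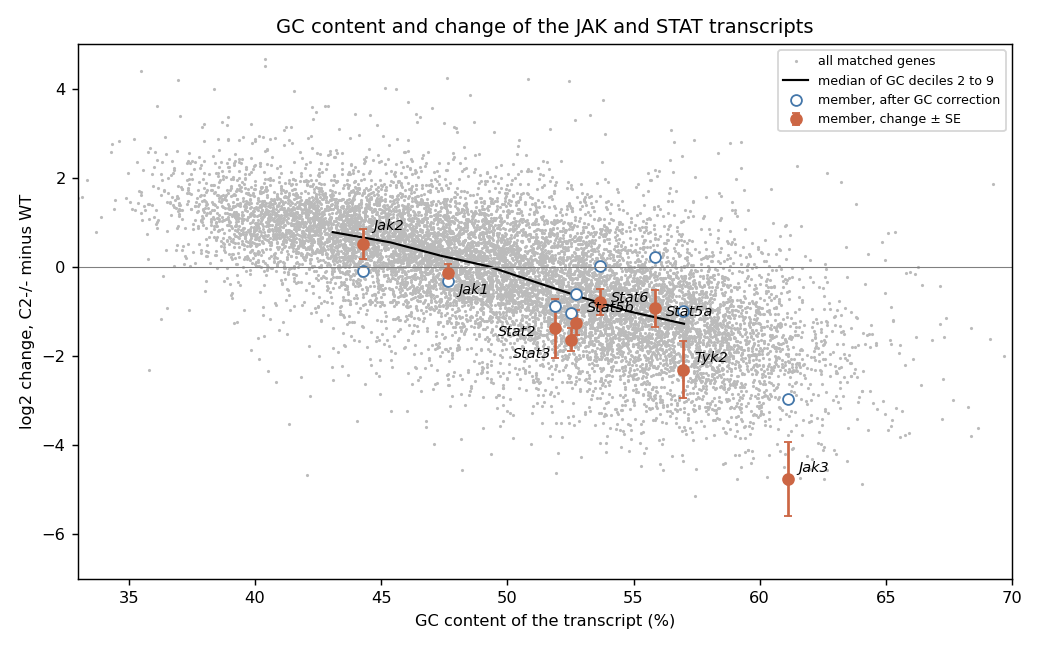
Log2 change, C2-/- minus WT (y axis), against the GC content (%) of the transcript (x axis) for matched genes in grey and the 9 genes in orange (± SE). Blue circles give their change after GC correction, and a black line runs through the medians of GC classes 2 to 9. Both axes are cut, and genes beyond them, such as Mybpc2 at -11.8, are not shown. Jak3, at 61.1% GC, lies at the lower edge of the grey points shown at -4.77, and at -2.98 after the correction.

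Levels between genes were compared per length of transcript, as RPKM (CPM per 1000 bases of 1 transcript). In WT the order was *Stat5b* (56.3 ± 18.3, SD, n = 4), *Jak1* (41.6 ± 8.19), *Jak2* (15.8 ± 7.99), *Stat3* (11.3 ± 1.75), *Stat6* (7.59 ± 0.855), *Stat5a* (3.54 ± 1.25), *Tyk2* (2.72 ± 0.424), *Jak3* (2.03 ± 0.717) and *Stat2* (1.64 ± 0.749). Neighbours in this order did not overlap only from *Jak1* to *Jak2*, from *Stat3* to *Stat6* and from *Stat6* to *Stat5a*. *Tyk2* was above *Jak3* in 4 of 4 libraries, although the ranges overlapped. In C2-/- *Jak1* came first (37.8 ± 6.30, SD, n = 3), followed by *Stat5b* (22.4 ± 2.77), whose range overlapped that of *Jak2* (21.6 ± 7.52). *Jak3* came last, at 0.0856 ± 0.148, below *Stat2* (0.684 ± 0.504) in 3 of 3 libraries, although the ranges overlapped. In C2-/- replicate 2 this order rested on 0 against 2 reads.

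**Figure D4:**
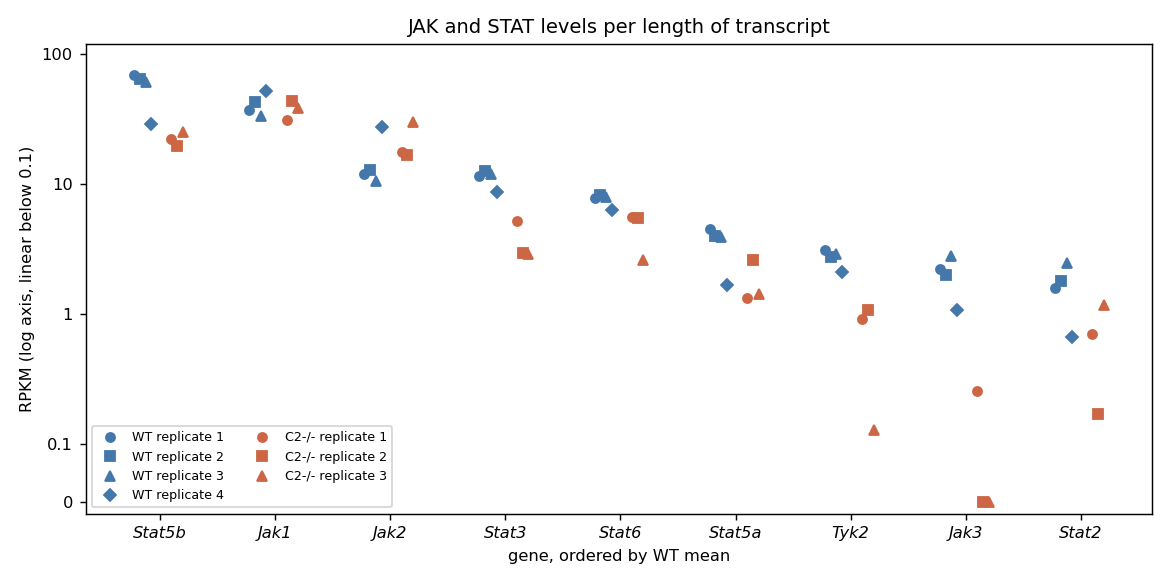
Level per length (RPKM, log axis that is linear below 0.1) of the 9 genes, ordered by WT mean, in each WT (blue) and C2-/- (orange) library. Stat5b and Jak1 lead in WT at 56.3 and 41.6, and Jak3 lies at 0 in 2 C2-/- libraries.

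Of the STAT genes, 3 lie side by side on chromosome 11. *Stat5b* (chr11:100780731-100850724, minus strand), *Stat5a* (chr11:100859351-100885169, plus strand) and *Stat3* (chr11:100885098-100939540, minus strand) follow each other, with 8626 bases between the first pair. *Stat5a* and *Stat3* overlap by 72 exon bases on opposite strands, and whether the counting used strand was not stated. These neighbours had changes of -1.26, -0.93 and -1.63. *Stat6* (chr10:127642986-127660957) and *Stat2* (chr10:128270559-128292849) lie apart on chromosome 10, both on the plus strand. *Jak1* is at chr4:101152367-101265282 (minus strand), *Jak2* at chr19:29251828-29313080 (plus strand) and *Tyk2* at chr9:21104068-21131243 (minus strand). The JAK transcripts used here have 25 exons each.

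The genes whose pattern over the 7 libraries was most like that of *Jak3*, by Pearson's r of log2 values among 10941 genes with a WT mean of at least 1, were *Fv1* (0.9995), *Acss2os* (0.9991), *Apoa2* (0.9985), *Mul1* (0.9985) and *Neil1* (0.9980). Of these, all but *Mul1* held 0 to 3 reads in every C2-/- library, as *Jak3* did, and at 0 reads the log2 values are set by depth. Such likeness was common, with 604 genes above 0.95. Among the members, *Stat3* was the closest to *Jak3* (r = 0.99 over 7 libraries, 0.95 after the genotype means were taken away), and *Tyk2* and *Stat6* were close to each other (0.99 and 0.98). These were the highest values of all member pairs. The first includes *Jak3* at 3, 0 and 0 reads in C2-/-. In the second, both genes were lowest in C2-/- replicate 3 (-0.47 and 3.33).

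Around the JAKs and STATs, 75 of 112 listed receptors, ligands, inhibitors and targets were measured, and the others were not analysed here. Of the 75, 27 were past the threshold, 10 higher and 17 lower in C2-/-, which is 36.0% beside 45.2% of all genes. Their median change was -0.27. After GC correction 8 were past it, 3 higher and 5 lower, beside 20.6% of all genes. The adjusted p-values of these genes come from limma over all 12239 genes.

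Of 24 measured receptor genes 5 were higher and 6 lower, or 45.8% past the threshold, close to the 45.2% of all genes. The common gamma chain *Il2rg*, through which JAK3 works, was near the detection limit and was named here after its values were seen. It held 27, 26, 41 and 5 reads in WT and 6, 1 and 11 in C2-/-, with a change of -0.33 ± 0.67 (limma adjusted p = 0.704). Of the 4 gamma chain receptor genes measured, *Il4ra*, the receptor that leads to STAT6, was past the threshold (change -1.70 ± 0.50, limma adjusted p = 0.0193). It lost the threshold after GC correction (-0.55) and without WT replicate 1 or 2. *Il15ra*, the most abundant, changed by 0.077 ± 0.30 (limma adjusted p = 0.849).

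In the gp130 family, which uses JAK1 and STAT3, 2 of 6 were higher and 2 lower, beside 20.2% and 25.0% of all genes, and 0 of 6 were past the threshold after GC correction. The shared signal chain *Il6st* lay at 6.46 to 6.76 in WT and 6.13 to 6.50 in C2-/- and was not past the threshold (change -0.24 ± 0.17, limma adjusted p = 0.254). *Cntfr*, the ciliary neurotrophic factor receptor, fell by 1.85 ± 0.34 on the log2 scale (limma adjusted p = 0.00236), and *Lifr*, the leukaemia inhibitory factor receptor, rose by 0.62 ± 0.20 (limma adjusted p = 0.0259). After GC correction these changes were -0.18 and 0.020, neither past the threshold, and *Lifr* also lost it with quantile normalization, without the trend and when WT replicate 1, 2 or 3 or C2-/- replicate 3 was left out. The growth hormone receptor *Ghr*, upstream of JAK2 and STAT5B, stood at 7.87, 7.80, 7.86 and 8.27 in WT and at 8.53, 8.74 and 8.57 in C2-/-. It was higher in all C2-/- libraries (change 0.66 ± 0.16, limma adjusted p = 0.00870), the opposite direction to *Stat5b*. The sign of *Ghr* turned with GC correction, to -0.33, and *Ghr* lost the threshold with quantile normalization.

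Of the 4 beta common receptor genes 1 was lower, beside 25.0% of all genes. The most abundant, *Csf2rb2*, changed by -0.39 ± 0.51 (limma adjusted p = 0.542). How far its reads can be told from those of its neighbouring paralog *Csf2rb* was not tested. Among 8 receptors for interferons, interleukin-10, interleukin-12 and interleukin-13, 1 was higher and 2 lower, beside 20.2% and 25.0% of all genes. *Il12rb2*, which binds JAK2, fell by 2.85 ± 0.85 on the log2 scale (limma adjusted p = 0.0207), *Ifngr2* fell by 0.80 ± 0.21 (limma adjusted p = 0.0103), and *Ifnar2* rose by 1.29 ± 0.40 (limma adjusted p = 0.0242). All 3 were still past the threshold after GC correction, but *Il12rb2* was not without WT replicate 2 or 3 (-3.88 to -1.78 over the libraries left out), nor *Ifnar2* with the replicate number as a block or without C2-/- replicate 1 or 2 (1.03 to 1.59). Of the 16 ligands listed only 2 were measured and neither was past it. *Il15* changed by 0.32 ± 0.36 (limma adjusted p = 0.475).

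The SOCS family holds feedback inhibitors of cytokine receptors, some of which are STAT targets themselves. Of the 7 measured, 1 was higher and 1 lower (28.6% past the threshold, beside 45.2% of all genes), and 0 were past it after GC correction. *Socs6* rose by 1.04 ± 0.19 on the log2 scale (limma adjusted p = 0.00243), with a sign that turned with GC correction (-0.053). *Cish*, a STAT5 target, fell by 1.26 ± 0.40 (limma adjusted p = 0.0276), but WT replicate 4, at 3.66, lay inside the C2-/- range of 3.25 to 3.87, and after GC correction the change was -0.029. *Socs7*, the most abundant, changed by -0.57 ± 0.21 (limma adjusted p = 0.0489), short of the fold threshold, which it passed with quantile normalization, voom, library quality weights or the replicate block and without WT replicate 4 or C2-/- replicate 2. *Socs3*, a STAT3 target, changed by -2.01 ± 0.86 and did not pass (limma adjusted p = 0.0781). *Cish* and *Socs3* were named after their values were seen, because of the motifs shown next.

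Sites of the form TTCNNNGAA, which STAT dimers bind, and TTCNNTTTC (GAAANNGAA on the other strand), a core bound by STAT2 with IRF9 and by other interferon regulatory factors, were searched on both strands in windows of 300 bases, from 250 before to 50 after the RefSeq start (GRCm38.p6). The first occurs in 8.30% and the second in 8.56% of all 32851 windows. TTCNNNGAA reads the same on both strands, and matches to the 2 motifs may overlap each other. All 9 members had a window. The 11 windows of the members held no TTCNNNGAA, and TTCNNTTTC or its reverse occurred in 2 of them, those of *Jak3* and *Stat2*. These and the stretches of *Cish* and *Socs3* are shown with the motifs in capitals, on the strand of the gene, because they set the kinase with the largest fall and the STAT of the interferon response beside targets that carry the pathway's own motif.
Jak3, chr8:71676220-71676268, plus strand: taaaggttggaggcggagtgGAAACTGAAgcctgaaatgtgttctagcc
Stat2, chr10:128270257-128270305, plus strand: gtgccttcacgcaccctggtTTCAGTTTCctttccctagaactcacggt
Cish, chr9:107296639-107296684, plus strand: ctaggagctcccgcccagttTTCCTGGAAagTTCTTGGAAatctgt
Socs3, chr11:117969492-117969540, minus strand: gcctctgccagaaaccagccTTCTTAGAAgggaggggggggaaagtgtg
The motif begins 143 bases before the start in *Jak3*, 221 bases before it in *Stat2* and 154 bases before it in *Socs3*. *Cish* holds 2 motifs, the first beginning at its start site. Of the 16 measured type I interferon targets 11 had a window, and 6 of these held TTCNNTTTC or its reverse. Of the 13 measured STAT3, STAT5 and STAT6 targets 10 had a window, and 2 of these, *Bcl6* and *Igfals*, held TTCNNNGAA. A match is a matter of letters and was not tested as a binding site.

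The phosphatases, PIAS proteins and adaptors had 3 genes higher and 4 lower of 13 (53.8% past the threshold, beside 45.2% of all genes). *Ptpn11*, the SHP2 phosphatase, stood at 6.76 to 7.58 in WT and 6.06 to 6.33 in C2-/- and fell by 1.11 ± 0.22 on the log2 scale (limma adjusted p = 0.00303). *Sh2b1*, an adaptor that binds JAK2, had the largest fall of this list, 2.57 ± 0.41 (limma adjusted p = 0.00124). *Ptpn11* (-0.63, limma adjusted p = 0.0384) and *Sh2b1* (-0.89, limma adjusted p = 0.0417) were the ones still past the threshold after GC correction. Of the PIAS genes, named as inhibitors of activated STATs, *Pias2* rose by 1.36 ± 0.20 (limma adjusted p = 0.000945) and *Pias4* fell by 1.29 ± 0.35 (limma adjusted p = 0.0132), but after GC correction both changes were positive (0.58 and 0.47) and neither was past the threshold. *Pias1* and *Pias3*, given for completeness after their values were seen, changed by 0.44 ± 0.24 (limma adjusted p = 0.145) and -0.97 ± 0.36 (limma adjusted p = 0.0469).

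Of 13 measured targets of STAT3, STAT5 and STAT6, 4 were lower, 1 was higher and 8 did not pass, beside 25.0% and 20.2% of all genes. The anti-apoptotic gene *Bcl2l1* fell by 2.03 ± 0.61 on the log2 scale (limma adjusted p = 0.0210), the kinase gene *Pim1* by 1.73 ± 0.43 (limma adjusted p = 0.00893) and *Myc* by 1.66 ± 0.57 (limma adjusted p = 0.0362). None of these was past the threshold after GC correction. *Bcl2l1* also lost it without C2-/- replicate 1 or 3, and *Myc* lost it with quantile normalization, median centring or the replicate block and when any 1 library other than C2-/- replicate 2 was left out. The most abundant target, *Mcl1*, changed by 0.56 ± 0.20 the other way, short of the fold threshold (limma adjusted p = 0.0391), which it passed with median centring, library quality weights or the replicate block and without WT replicate 4 or C2-/- replicate 1. *Igf1*, a growth hormone target, was the one higher, and was named after its values were seen. It stood at 2.90, 3.59, 3.66 and 4.97 in WT and at 5.31, 5.28 and 5.61 in C2-/- (change 1.62 ± 0.42, limma adjusted p = 0.0105).

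The type I interferon targets, downstream of TYK2, JAK1 and STAT2, had 2 of 16 lower and 0 higher, beside 25.0% and 20.2% of all genes. Those 2 act in the pathway itself. *Irf9*, the DNA-binding partner of STAT2, held 88, 86, 137 and 60 reads in WT and 8, 0 and 16 in C2-/-, and fell by 2.70 ± 0.92 on the log2 scale (limma adjusted p = 0.0355). It was no longer past the threshold after GC correction (-2.20, limma adjusted p = 0.107) or without the trend. It also lost the threshold when any 1 of the WT libraries was left out, and leaving out a library took its change from -3.44 to -1.34. *Usp18*, which binds the interferon receptor and dampens its signal, held 25, 28, 32 and 19 reads in WT and 0 in all C2-/- libraries (limma adjusted p = 0.00203). Taking the highest level that 3 reads would give in a C2-/- library (1.12 CPM) as the limit, it was at least 2.21-fold below its WT mean (2.48 CPM). WT replicate 4, with 19 reads at a depth of 4683853, raises that mean. Against each of the other WT libraries the bound is smaller. *Ifitm3*, the most abundant target, changed by 0.47 ± 0.19 (limma adjusted p = 0.0662), and was past the threshold and higher after GC correction (0.95, limma adjusted p = 0.0109) and with median centring (0.63, limma adjusted p = 0.0232). The median over this list was -0.14, equal to that of all genes.

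**Figure D5:**
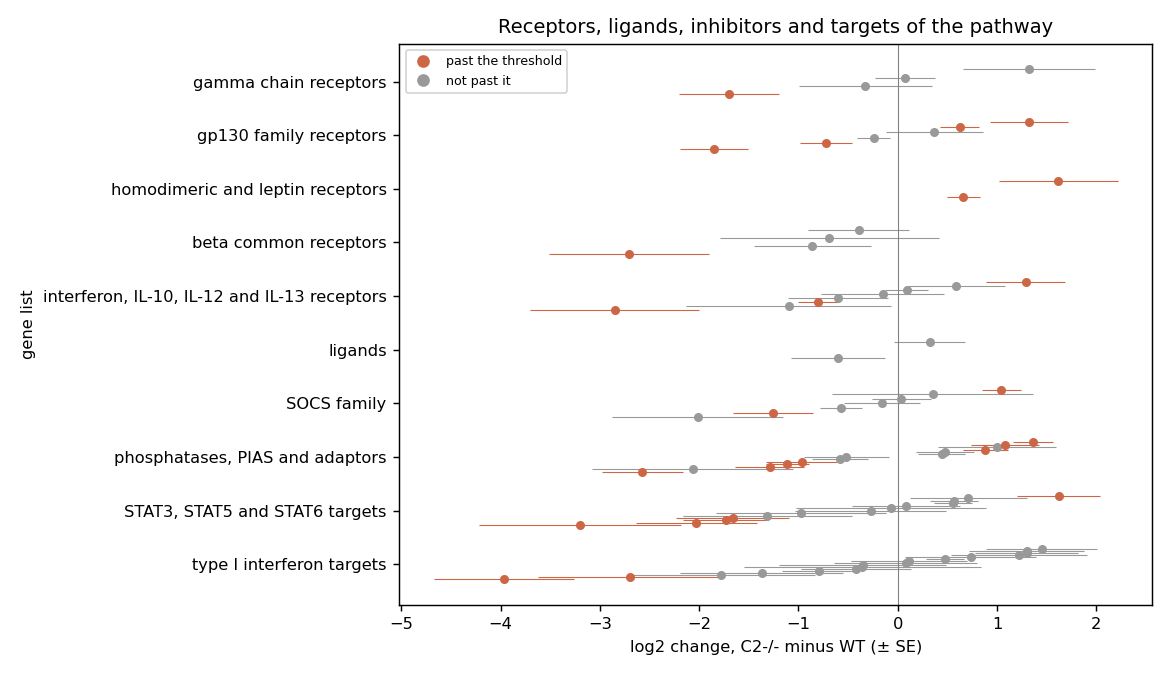
Log2 change, C2-/- minus WT, with SE (x axis) of the 75 measured genes around the JAKs and STATs, by list (y axis), in orange where past the threshold and in grey where not. Changes run both ways in 8 of the 10 lists.

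Cell types that could carry JAK3 were looked at through their markers. Counts before GC correction stand beside the 20.2% of all genes that were higher and the 25.0% that were lower. The 10 T and NK cell, 5 B cell and 4 neutrophil markers were not analysed here. Of 9 macrophage markers, 2 were higher and 2 lower, and their summed level was 61.4 to 86.2 CPM in WT and 69.1 to 110 CPM in C2-/-. The leukocyte gene *Ptprc*, in the phosphatase list and named after its values were seen, changed by 1.002 ± 0.59 (limma adjusted p = 0.185). All 4 fibroblast markers were higher, with sums of 339 to 521 CPM in WT and 1248 to 1424 CPM in C2-/-, and 5 of 8 fast fibre markers were lower, with sums of 148376 to 181683 and 79293 to 98119 CPM. After GC correction 12.3% of all genes were past the threshold and higher, and 8.33% past it and lower. Beside these shares, 2 of the 4 fibroblast markers were higher and 2 of the 8 fast fibre markers were lower (fast fibre median change -0.22, from -1.19). Of the 9 macrophage markers, 1 was then higher and 0 lower (median change 0.80, from 0.060). The endothelial markers summed to 266 to 423 and 241 to 312 CPM, with 1 of 5 lower, and neither of the 2 adipocyte markers measured, of 3, was past the threshold (0.130 to 3.87 and 1.72 to 11.2 CPM), though 1 was, and higher, after GC correction. No list had a marker at 0 reads in every C2-/- library, and the part of these shifts in the JAK and STAT values was not tested.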

How the data were processed

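TA RNA from 4 WT and 3 C2-/- libraries was analysed. The authors aligned reads to GRCm38.p6 with HISAT, counted them per gene with featureCounts 1.5.2, scaled them with edgeR's TMM factors and deposited log2 CPM values for 12239 genes. How the genes were filtered, how multiply mapped reads were treated and whether strand was used are not given in the sources used here. The authors' own comparison (fold changes, p-values and scores) was not used.

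Whole reads were recovered from the log2 values: log2 of (reads + 0.5) per 1000000 of effective library size held for 100.0% of values, with departures of at most 2.1e-08. Totals were 2613277 to 15464499 reads per library, and 3 reads equalled 0.195 to 1.12 CPM. Intervals and floors cover counting error only, since no molecular identifiers are described and PCR copies may count more than once. Every pair of libraries differed by more than counting error (chi-square per degree of freedom at least 9.12). Repeat libraries of a mouse could differ as much, so the 7 count as samples by their titles and the study's description.

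The test was limma 3.58.1 (R 4.3.3) with a mean-variance trend on the log2 values, genotype as the only term, two-sided, with Benjamini-Hochberg adjustment over all genes, and the threshold was an adjusted p under 0.05 and a fold above 1.5. It was also run on simulated data that had no GC trend and no outlying library, so that run does not cover these features of the real data. Because 0.5 reads were added before the log, changes of genes with few reads depend on depth. GC content and length came from 1 GENCODE M21 transcript per gene (12174 genes matched, 99.5%), and the GC correction used a natural spline with 5 degrees of freedom per library. Promoter windows came from RefSeq.

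The members and the lists were chosen with earlier results of these data known. All members were named. From each pathway list up to 3 genes were named, those with the largest change past the threshold whose groups did not overlap and whose higher group had a mean log2 value of at least 1, plus the gene with the highest WT mean. The 5 genes most like *Jak3* were named too. Other names are marked as chosen after their values were seen. Alternatives were other normalizations, filters, pseudocounts, weights and thresholds, GC correction, the replicate number as a block and each library left out. Comparison with WT replicate 4 alone was added after the data were seen.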

Additional observations from a re-analysis of the deposited data

Results flagged for a closer look

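In WT, where 4 libraries allow it, 36 values were looked at for a library whose distance from the nearest other was most of the group's range (above Dixon's 95% critical value for 4 samples). This picked out 11 values, where chance gives about 1.8, and all 11 belonged to WT replicate 4. Among the JAKs and STATs these were *Stat5a*, at 2.75 where the rest of WT had 3.94 to 4.13, and *Stat5b*, at 7.26 against 8.32 to 8.51. WT replicate 4 was also low for *Ifnar2* (1.82 against 2.76 to 2.91), *Pias4* (3.43 against 4.09 to 4.19) and *Ptpn11* (6.76 against 7.51 to 7.58). It was high for *Il6st* (6.76 against 6.46 to 6.50), *Ghr* (8.27 against 7.80 to 7.87), *Pias2* (6.96 against 6.32 to 6.43) and *Bcl2l1* (4.35 against 3.45 to 3.60). The library itself held 4683853 reads, against 14929214 to 15464499, and 75 genes at 0 reads, against 1 to 3. The C2-/- group, with 3 libraries, was not looked at in this way, so WT replicate 4 is not shown to be the sole library that stands apart. C2-/- replicate 2 held 1030 genes at 0 reads, against 247 and 404 in C2-/- replicates 1 and 3.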

How the results depend on the processing

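As a description only, since the members were chosen from this contrast, the change of *Jak3* ran from -5.80 to -2.79 and that of *Stat3* from -1.91 to -1.03 over the alternatives that kept them and the libraries left out, and both stayed past the threshold. *Tyk2* and *Stat5b* lost it with GC correction, and *Tyk2* also at an adjusted p under 0.01, which left 3 members. The count of members past the threshold, 4, became 2 with GC correction, 8 with library quality weights (beside 51.9% of all genes) and 4 to 8 with a library left out, the 8 without WT replicate 4. The count of all genes, 5528, became 2509 with GC correction and 3216 at an adjusted p under 0.01, and 4095 to 6136 with a library left out. The pathway count, 27, became 8 with GC correction, 8 at an adjusted p under 0.01, and 15 to 31 with a library left out (17, 15 and 15 without WT replicates 1, 2 and 3). GC correction reversed *Il15ra* (-0.11), *Ghr* (-0.33), *Csf2rb2* (0.35), *Socs6* (-0.053), *Socs7* (0.25) and *Pias4* (0.47). Leaving out a library took *Il15ra* from -0.26 to 0.28. The cause was not tested.

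Replicate numbers are shared by the genotypes, but same-numbered libraries did not deviate together (r = 0.053, -0.064 and -0.053). Deviations from the means of so few libraries depend on each other, so these values cannot decide whether the numbers pair the libraries. With the number as a block, in which WT replicate 4 has no partner and so adds nothing to the contrast, 8 members, 5901 genes and 31 pathway genes were past the threshold. At 2613277 to 4917936 reads, falls of genes near 3 reads in C2-/- are bounded by depth.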
